A study of Mus musculus with 5 samples.

Results

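Potassium channel genes form a large family that is mostly known from nerve, heart and kidney. The members described here were all genes whose symbol starts with Kcn, with 1 probe set for each gene, the one with the highest mean log2 value over the arrays. There were 77 such genes, from 82 probe sets, among 17325 genes with a named probe set. A total of 75 of the 77 encode channel subunits or proteins that bind them, and the other two, Kcnmb4os1 and Kcnmb4os2, are antisense transcripts of Kcnmb4. Transcript levels came from 5 Affymetrix Mouse Genome 430 2.0 arrays of pro-B cells, the bone marrow progenitors that carry B220, CD43 and CD24 but no surface IgM, taken from mice aged 9 months. Of these arrays, 3 held control cells and 2 held Vav-Cre Mef2cfl/fl cells, here called Mef2c-deficient. In these mice Cre is made in haematopoietic cells and deletes Mef2c, which encodes the transcription factor under study. The labels give the controls only as control, and by the methods control mice of matched age had 1 or both alleles floxed without Cre, or Vav-Cre with 1 floxed allele, so a control may carry Cre. The methods call the samples independent but do not say how many mice went into each, and the 3 and 2 arrays limit the precision of every value.

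Potassium channels let potassium leave the cell along its gradient and so keep the inside of the membrane negative. In lymphocytes this negative potential maintains calcium entry after the antigen receptor has been engaged, and the voltage-gated channel of Kcna3 and the calcium-activated channel of Kcnn4 are the best known for it. Pore subunits are either voltage-gated, inwardly rectifying, leak channels with a pair of pores per subunit, or opened by calcium or sodium. Auxiliary subunits alter where these channels go and how they open.

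The bases before the start of 4 of these genes show how their promoters differ, in sequences from RefSeq on GRCm38.p6, each the 250 bases before the start and read along the strand of the gene. RefSeq promoters of 300 bases, from 250 before to 50 after the start, were matched to 60 of the 77 genes, 85 promoters in all. Kcna3 at chr3:107035912-107036161 (plus strand) and Kcnn4 at chr7:24370013-24370262 (plus strand) are shown as the lymphocyte channels, with each CG pair in capitals. Kcna3 had 31 such pairs and Kcnn4 had 6. The median over the 300-base promoters was 9 for the Kcn genes and 16 for all 17130 promoters. The promoters of Kcnj9 at chr1:172329323-172329572 (minus strand) and of Kcnj16 at chr11:110967783-110968032 (plus strand) are shown because they alone among the 85 held a match to the MEF2 consensus, searched by its name on both strands, in capitals below.
Kcna3: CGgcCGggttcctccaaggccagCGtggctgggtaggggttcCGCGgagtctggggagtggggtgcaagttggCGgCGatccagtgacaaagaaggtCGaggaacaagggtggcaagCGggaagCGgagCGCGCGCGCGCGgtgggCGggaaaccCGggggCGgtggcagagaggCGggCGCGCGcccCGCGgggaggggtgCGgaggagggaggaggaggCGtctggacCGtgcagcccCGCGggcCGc
Kcnn4: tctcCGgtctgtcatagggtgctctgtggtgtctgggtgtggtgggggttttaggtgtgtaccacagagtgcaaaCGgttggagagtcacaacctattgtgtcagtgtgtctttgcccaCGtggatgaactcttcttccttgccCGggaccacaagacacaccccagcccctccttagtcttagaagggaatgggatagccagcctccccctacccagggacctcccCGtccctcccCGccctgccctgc
Kcnj9: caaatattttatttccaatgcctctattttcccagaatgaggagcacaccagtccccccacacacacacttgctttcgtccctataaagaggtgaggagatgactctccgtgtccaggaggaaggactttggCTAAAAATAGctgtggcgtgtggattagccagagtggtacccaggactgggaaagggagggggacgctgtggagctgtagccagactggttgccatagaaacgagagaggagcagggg
Kcnj16: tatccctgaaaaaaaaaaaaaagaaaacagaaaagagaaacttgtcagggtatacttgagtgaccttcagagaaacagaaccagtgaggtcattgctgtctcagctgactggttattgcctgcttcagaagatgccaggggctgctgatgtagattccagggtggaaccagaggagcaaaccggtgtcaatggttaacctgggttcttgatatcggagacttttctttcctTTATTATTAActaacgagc
The match lay 118 to 109 bases before the start of Kcnj9 and 19 to 10 bases before that of Kcnj16. A match occurred in 2.35% of Kcn promoters (2 of 85) and in 2.09% of all promoters of this length (358 of 17130). Promoters were found for 6 of the 7 genes with clear signal described below, and none of them held it. A match of letters is a description of this window and not a binding site. Kcnj9 rose in Mef2c-deficient cells (log2 fold change 1.69), and Kcnj16 had a log2 fold change of 0.45 and was not called.

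The label of the cells was checked first. Of 13 measured pro-B markers, 12 were above the array median on all 5 arrays (Kit was not) and none was called changed, but the median log2 fold change of the list was -0.85. Mef2c-deficient replicate 2 stood apart for several of them, in both directions. Ebf1 read 3026 there against 29295 to 35416 on the other 4 arrays, Blnk 2661 against 18899 to 41783, and Cd24a 152861 against 528504 to 683783. Ptprc was higher there, at 9744 against 1805 to 2446 on the other 4. Dntt was lowest on Mef2c-deficient replicate 1, at 3050, against 35539 on replicate 2 and 8488 to 127098 in control. Mef2c had deposited values of 14006, 20854 and 17220 in control and 7379 and 6219 in Mef2c-deficient cells. Both Mef2c-deficient arrays were thus below all controls (log2 fold change -1.34, standard error 0.29, limma adjusted p = 0.0918), although the sources used here do not place its probes relative to the deleted part. Markers of other cells differed between the Mef2c-deficient arrays, and some between the controls. The greatest sums were those of 14 neutrophil and macrophage markers, 4719980, 5165120 and 2448560 in control, 2581440 on Mef2c-deficient replicate 1 and 6220850 on replicate 2. The summed values of 13 T and NK cell markers were 25586 to 47619 in control, 21568 on Mef2c-deficient replicate 1 and 83842 on replicate 2, where Cd3e read 13843 against 232 to 387 in control. Those of 6 plasmacytoid dendritic cell markers were 9066 to 15350 in control, 5274 on replicate 1 and 28053 on replicate 2, and those of 6 erythroid markers were 885 to 1050 in control, 1601 on replicate 1 and 4934 on replicate 2. The 15 hybridisation control probe sets, for RNA added in fixed amount, also set the arrays apart, with a median deviation from their mean over arrays of -1.58 (log2) on control replicate 3, the lowest, and 1.97 on Mef2c-deficient replicate 1, the highest. A difference in the number of cells that carry a transcript and a difference in RNA per cell cannot be told apart in such sorted bulk samples.

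Most potassium channel genes gave dim signals. Only 7 of the 77 (9.09%) lay above the median of all genes on each of the 5 arrays, against 39.0% of all genes, and 46 (59.7%) lay below it on each array, against 39.6%. The remaining 24 were above it on some arrays. As a second reference, 90 genes of families that are silent outside the nose or epithelia (olfactory, vomeronasal and trace amine receptors and beta defensins) gave the level of probe sets that should have no transcript. Their 95th percentile was 176, 146 and 149 on the control arrays and 311 and 185 on the Mef2c-deficient arrays, in deposited values. On all 5 arrays 14 Kcn genes (18.2%) exceeded it, against 45.4% of all genes, and 38 exceeded it on none. The same value to 6 decimals of log2 was found on more than 1 array for 39 members (50.6%) and for 40.0% of all genes. The brightness of different probe sets is not a measure of their relative RNA amounts, so these classes separate dim probe sets from clear ones and rank no channel above another.

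**Figure D1:**
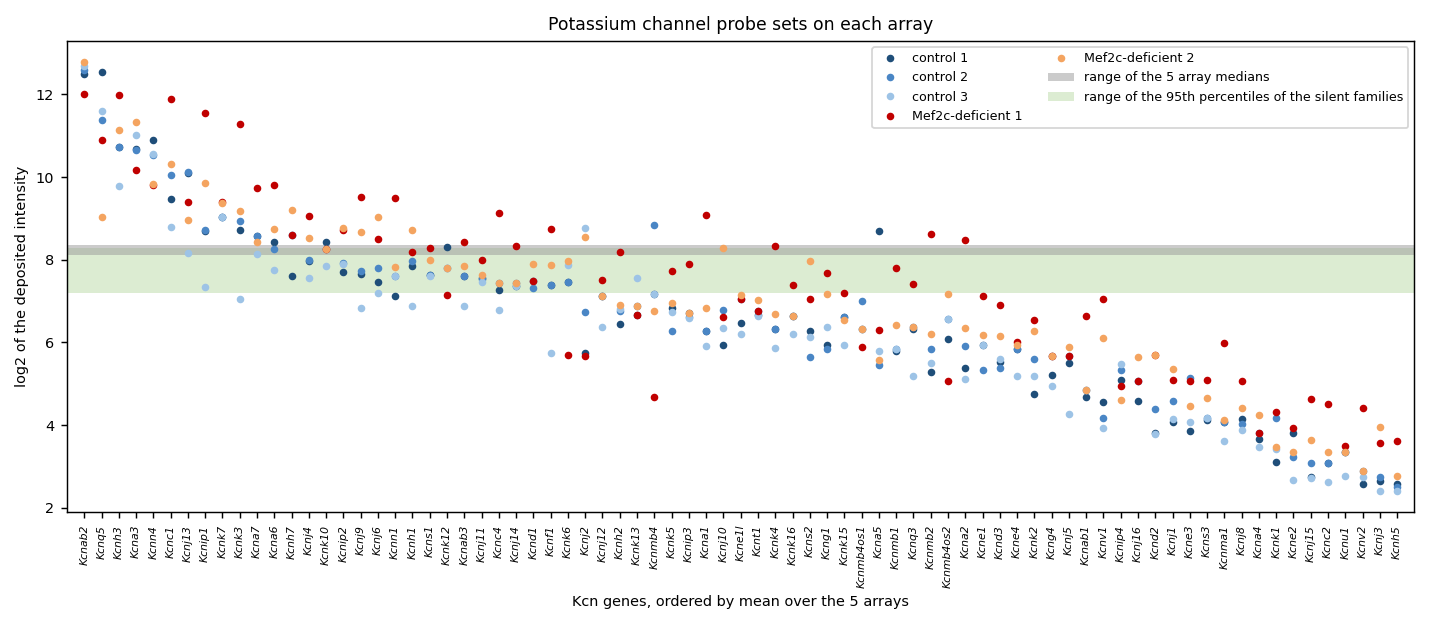
Deposited values on a log2 scale (vertical axis) for the 77 Kcn genes, ordered by mean, with 1 point per array, and bands for the range of the array medians (grey) and of the 95th percentiles of the silent families (green). On all 5 arrays 7 genes lay above the array median and 46 below it, and Mef2c-deficient replicate 1 alone was the highest array in 45 of the 77.

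The 7 genes with clear signal on every array did not move one way. Kcnab2, a cytoplasmic beta subunit that binds Shaker channels, read 5749, 6198 and 6594 in control and 4109 and 7022 in Mef2c-deficient cells. The Mef2c-deficient arrays were its lowest and its highest, so the groups overlapped. Its log2 fold change was -0.20 (standard error 0.32, limma adjusted p = 0.639), which turned positive after quantile normalization, cyclic loess or housekeeping centring and when Mef2c-deficient replicate 1 was left out. Kcna3, the Shaker channel of lymphocytes that Kcnab2 can bind, behaved alike, with 1634, 1616 and 2061 in control and 1151 and 2596 in Mef2c-deficient cells. Again the Mef2c-deficient replicates lay on either side of all controls. Its log2 fold change was -0.02 (standard error 0.42, adjusted p = 0.969), and its sign turned under the same settings, with array weights or a replicate block, and without control replicate 3. Mef2c-deficient replicate 2, where Kcna3 was the highest, was also the array with the most T and NK cell marker signal, and the part of that signal in the value was not tested.

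Kcnn4, the calcium-activated channel of lymphocytes and red cells, read 1894, 1475 and 1504 in control and 895 and 904 in Mef2c-deficient cells. Both Mef2c-deficient arrays lay below all controls and close to each other. The control mean was 1624 ± 234 (SD, n = 3) and the Mef2c-deficient mean 899.5 ± 5.8 (SD, n = 2), a difference of -0.84 in log2 (standard error 0.25, limma adjusted p = 0.115). This 1.79-fold difference did not reach the fold of 2 needed for a call, and its unadjusted p was 0.0208. It kept its sign in every alternative but shrank to -0.15 after quantile normalization, -0.14 with cyclic loess and -0.03 with housekeeping centring. Genes of its level group had a median of -0.73. The summed erythroid marker signal was higher on both Mef2c-deficient arrays, but its markers differed. On replicate 1 Slc4a1 read 855 against 188 to 234 in control, and Ermap 78.2 against 134 to 164. The part of red cells in the Kcnn4 values was not tested.

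Kcnq5, a pore subunit of the slow M current of neurons, was the sole member to fall. Its values were 5916, 2653 and 3107 in control and 1914 and 525 in Mef2c-deficient cells. Both Mef2c-deficient arrays were below all controls, and within each group the arrays differed by more than 2-fold. The log2 fold change was -1.87 (standard error 0.68, unadjusted p = 0.0406, limma adjusted p = 0.143). The call was lost without any 1 of the controls (log2 fold change -1.52 to -2.10) and without Mef2c-deficient replicate 2 (-0.93), and after quantile normalization (-1.06), cyclic loess (-0.98) or housekeeping centring (-1.05). Kcnh3, a voltage-gated channel of the ELK group known from forebrain neurons, had values of 1682, 1684 and 884 in control and 4046 and 2258 in Mef2c-deficient cells. Both of the latter exceeded all controls, with a log2 fold change of 1.15 (standard error 0.45) and an unadjusted p of 0.0511 (limma adjusted p = 0.156), just outside the call. Kcnc1, a Shaw channel that repolarises fast-spiking neurons, had 709, 1055 and 440 in control and 3796 and 1270 in Mef2c-deficient cells. It rose, with both Mef2c-deficient arrays above all controls (log2 fold change 1.67, standard error 0.62, limma adjusted p = 0.147), but the call was lost when Mef2c-deficient replicate 1 (0.88) or either of control replicates 1 (1.69) and 3 (1.34) was left out. Kcnk7, a subunit of the leak channel family, read 521 on each control array and 674 and 661 on the Mef2c-deficient arrays, a log2 fold change of 0.36 (standard error 0.23, adjusted p = 0.280).

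**Figure D2:**
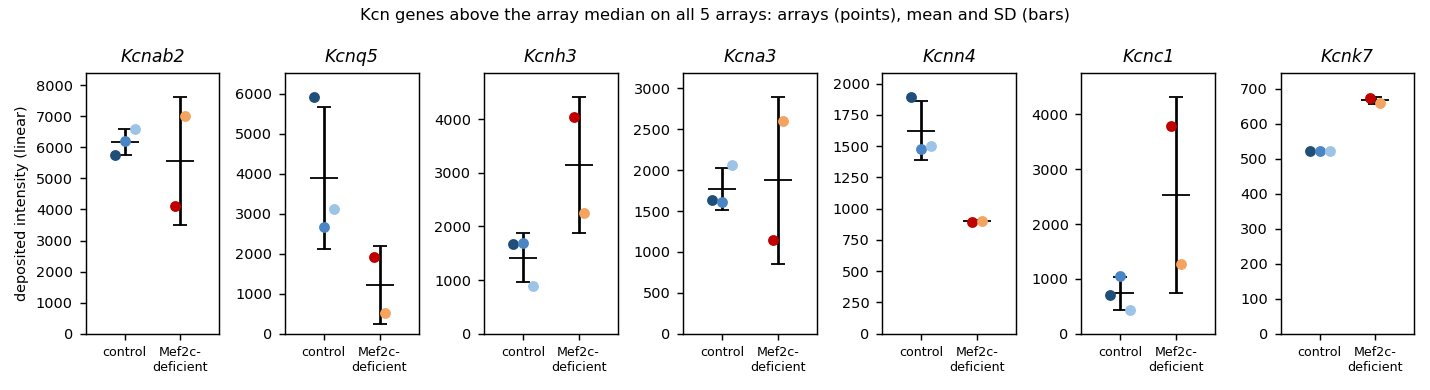
Deposited intensity on a linear scale from 0 for the 7 Kcn genes above the array median on all 5 arrays, with points for arrays (blue control, red and orange Mef2c-deficient replicates 1 and 2) and bars for the mean and SD (n = 3 and n = 2). The groups did not overlap for Kcnq5, Kcnh3, Kcnn4, Kcnc1 and Kcnk7, and they overlapped for Kcnab2 and Kcna3, where the sign of the difference turned under other scalings.

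Over the whole family, 16 genes rose and 1 fell, at a fold of at least 2 in deposited values and an unadjusted limma p of at most 0.05. The share that rose, 20.8%, stood against 9.65% of all genes, and the 1 that fell (1.30%) against 16.7%. No Kcn gene had an adjusted p under 0.05, and neither did any of the 17325 genes; 22 Kcn genes and 5593 of all genes had an unadjusted p of at most 0.05, and 6 Kcn genes (7.79%) had an adjusted p under 0.10, against 2086 of the 17325 genes, a greater share. The count that rose was 8 at a fold of 2 in signal, and 5 with an offset of 50 or with a replicate block, where 4.34%, 3.57% and 4.13% of all genes rose. The log2 fold change was positive for 64 of the 77, with a median of 0.72, against a median of 0.04 over all genes. Both Mef2c-deficient arrays exceeded all controls for 39 members (50.6%) and lay below all of them for 4 (5.19%; Kcnq5, Kcnn4, Kcnmb4 and Kcnip4), against 25.9% and 28.4% of all genes.

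Much of that distance was shared by genes of like level: dim genes of all kinds were mostly higher and bright genes mostly lower in Mef2c-deficient cells. Split at the median of the mean levels, 16.2% of the dimmer 8662 genes rose and 3.68% fell, and 3.07% of the brighter 8663 genes rose and 29.8% fell. The dimmer genes included 64 Kcn genes, of which 13 rose (20.3%) and 0 fell, and their median of 0.73 stood beside 0.58 for all dimmer genes. Both Mef2c-deficient arrays exceeded all controls for 33 of these 64 (51.6%) and lay below them for 2 (3.12%), against 42.6% and 6.74% of the dimmer genes. The 90 genes of the silent families also lay mostly above 0, with 9 that rose, 0 that fell, 80 positive values and a median of 0.56. They were called less often. Of the 88 among the dimmer genes 8 rose (9.09%), against 20.3% of the dimmer Kcn genes and 16.2% of all dimmer genes. The 13 brighter Kcn genes had a median of 0.63 against -0.86 for all brighter genes; Kcnc1, Kcnip1 and Kcna6 rose and Kcnq5 fell. The split used the mean over all 5 arrays, to which a gene's own change contributes. By the control arrays alone, a split chosen after seeing the data, Kcna6 moved to the dimmer genes, the 12 brighter Kcn genes had a median of 0.49 against -0.92, and the 65 dimmer ones 0.73 against 0.63. No test was made of these shares, since the members were chosen with results of these arrays known.

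Split into 10 groups of equal size by mean level, the Kcn genes of the dimmest 5 groups had medians of 0.52 to 0.93, where all genes of those groups had 0.43 to 0.65. In the sixth group the 6 Kcn genes had a median of 0.89 against 0.03, and with groups by the control arrays alone 6 had 1.16 against -0.03. The seventh to ninth groups held 7 Kcn genes, which scattered widely around group medians of -0.73 to -1.10. Kcnc1 and Kcnh3, with log2 fold changes of 1.67 and 1.15, lay furthest above the median of their group, by 2.40 and 2.16. Kcna3, Kcnab2 and Kcnj13 lay above it at log2 fold changes near 0 (-0.02, -0.20 and -0.29). Kcnn4 and Kcnq5, with log2 fold changes of -0.84 and -1.87, lay at distances of -0.11 and -0.86 from it. In all, 50 of the 77 lay above the median of their group. Over all 77, above and below, the median distance from it was 0.30 on the log2 scale.

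**Figure D3:**
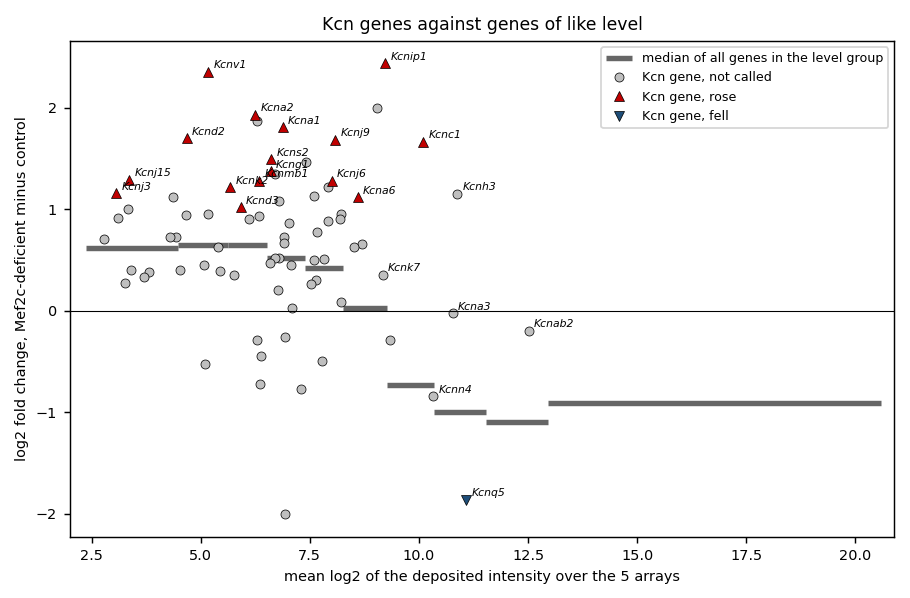
Log2 fold change (Mef2c-deficient minus control, vertical axis) against mean log2 deposited value over the 5 arrays (horizontal axis) for the 77 Kcn genes, with grey bars for the median of all genes in each of 10 level groups. The bars start at 0.62 on the left and reach -1.10 in the ninth group, and 16 Kcn genes rose (red) while 1 fell (blue); the sign of Kcna3 and Kcnab2 turned under other scalings.

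The rise was uneven between the Mef2c-deficient arrays. Measured from the control mean, the median of the Kcn genes was 0.94 on replicate 1 and 0.43 on replicate 2, and replicate 1 was above replicate 2 for 50 members and below it for 24. Replicate 1 was the single highest array for 45 members (58.4%), a share of 52.4% in the dimmer genes as a whole and 56.7% in the silent families. Control replicate 3 was the single lowest for 41 (53.2%), against 39.9% and 53.3%. These are the arrays at either end of the hybridisation controls, and 8 members (Kcna2, Kcnc1, Kcnh3, Kcnip1, Kcnj15, Kcnj4, Kcnj9 and Kcnk3) put all 5 arrays in exactly the order of those controls, 10.4% against 5.29% of all genes and 8.47% of the dimmer genes. That order puts all controls below both Mef2c-deficient arrays, so it coincides with the groups. Among the 16 that rose there were 5 of these 8. All 16 had both Mef2c-deficient arrays above all controls, so they shared the part of the order that lies between the groups. The part of labelling or hybridisation in the rise was not tested. Without Mef2c-deficient replicate 1, 8 genes rose and the median was 0.43, and without replicate 2, 30 rose and the median was 0.94, where 8.28% and 17.4% of all genes rose. With 1 Mef2c-deficient array left, that array is assumed to vary like the controls.

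**Figure D4:**
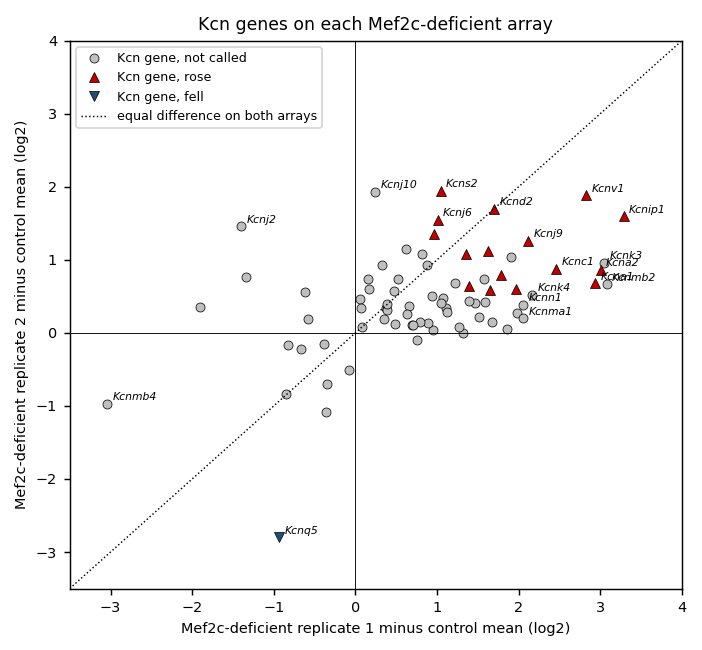
Difference from the control mean (log2) on Mef2c-deficient replicate 1 (horizontal axis) and replicate 2 (vertical axis) for each of the 77 Kcn genes, with a dotted line where both are equal. Most points lie in the upper right part below the line, 50 genes being higher on replicate 1 and 24 on replicate 2; Kcnq5 is the fallen gene at the lower left.

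Voltage-gated pore subunits of the Shaker, Shaw and Shal groups contained the most genes that rose, 6 of 13 (Kcna1, Kcna2, Kcna6, Kcnc1, Kcnd2 and Kcnd3), with a group median of 1.02. No Shab gene (Kcnb) was among the members. This count and those by role below stand beside 9.65% of all genes and 16.2% of the dimmer genes that rose. No test was made by role. Kcnd2, which encodes a transient Shal channel of neurons and heart, read 14.1, 20.9 and 13.8 in control and 52.0 on both Mef2c-deficient arrays. All its values were dim and far below the silent-family percentile, and the groups did not overlap (log2 fold change 1.70, standard error 0.30, limma adjusted p = 0.0895). Its Mef2c-deficient values were identical (SD 0), so they added no spread to this standard error. Kcna2, a Shaker channel of axons, had values of 42.0, 60.3 and 34.9 in control and 358 and 81.1 in Mef2c-deficient cells (log2 fold change 1.93, adjusted p = 0.140). Only replicate 1 exceeded the silent-family percentile. The other 3 probe sets of Kcna2 had log2 fold changes of 0.67 to 1.0 and were not called. Kcna1, also an axonal Shaker channel, showed the same shape, with 77.1, 77.1 and 60.3 in control and 546 and 114 in Mef2c-deficient cells (log2 fold change 1.81, adjusted p = 0.154). Kcna5 had a single high array, at 415 on control replicate 1 against 44.2 to 78.2 on the other 4, and a log2 fold change of -0.72 that was not called.

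Modifier subunits, which carry no current alone and join Shab channels, had a group median of 1.14, with 8 of 8 positive and 3 that rose. Of the dimmer genes as a whole, 80.1% were positive. Of these 8, 5 exceeded the silent-family percentile on no array and Kcns2 on 1, so most of these differences lie between dim values. Kcnv1 read 23.7, 17.9 and 15.3 in control and 133 and 68.8 in Mef2c-deficient cells, without overlap (log2 fold change 2.36, standard error 0.40, limma adjusted p = 0.0895). All 5 of its values were below the array median and below the silent-family percentile. Kcnv1 kept its call in every alternative in which it was tested. Kcns2 (log2 fold change 1.50) and Kcng1 (1.38) were likewise dim and higher on both Mef2c-deficient arrays.

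Of 15 inward rectifier subunits 4 rose, and 3 of them, Kcnj3, Kcnj6 and Kcnj9, encode channels opened by G proteins (log2 fold changes 1.16, 1.28 and 1.69). Kcnj3 was very dim, at 6.32, 6.66 and 5.35 in control and 11.9 and 15.6 in Mef2c-deficient cells, below the silent-family percentile on every array. Kcnj9 read 202, 211 and 114 in control and 733 and 407 in Mef2c-deficient cells. Both Mef2c-deficient arrays were clear of the controls and above the array median, which no control reached (standard error 0.44, limma adjusted p = 0.0998). Kcnj5, which encodes the remaining G protein-opened subunit, had a log2 fold change of 0.63 and was not called. Kcnj15 rose from 6.57 to 8.44 in control to 24.8 and 12.4 (log2 fold change 1.29), and stayed below the silent-family percentile on every array. Kcnj2, the strong inward rectifier of macrophages and muscle, varied most within the groups, with 53.3, 107 and 435 in control and 51.3 and 373 in Mef2c-deficient cells. Its log2 fold change of 0.03 (standard error 1.23) had no stable sign, being negative after quantile normalization or cyclic loess and when control replicate 1 or 2 or Mef2c-deficient replicate 2 was left out. Kcnj13 (1102, 1110 and 286 in control, 670 and 497 in Mef2c-deficient cells) also overlapped.

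Among 12 leak channel genes Kcnk2 alone rose (log2 fold change 1.22), and the group median was 0.42. Kcnk3, an acid-sensitive leak channel, had values of 419, 492 and 132 in control and 2484 and 583 in Mef2c-deficient cells. Its log2 fold change of 2.0 rested mostly on replicate 1, and the unadjusted p of 0.0711 missed the call (limma adjusted p = 0.183). Kcnk5, a leak channel known in T cells, read 113, 77.6 and 107 in control and 211 and 124 in Mef2c-deficient cells (log2 fold change 0.72, standard error 0.36, adjusted p = 0.215). Kcnk6, a leak channel known in macrophages, read 178, 178 and 236 in control and 52.0 and 251 in Mef2c-deficient cells. The Mef2c-deficient arrays lay outside the controls on both sides, and the log2 fold change of -0.77 turned positive with housekeeping centring and without replicate 1.

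None of the 5 calcium- and sodium-activated pore subunits was called, and their median was 0.27. Kcnma1, the large-conductance channel, was dim on every array (12.2 to 63.1, log2 fold change 1.13, adjusted p = 0.234). Among 15 auxiliary subunits, Kcnip1 and Kcnmb1 rose. Kcnip1, a calcium-binding partner of Shal channels, had the greatest fold of the family, with 412, 424 and 162 in control and 2974 and 921 in Mef2c-deficient cells. Both Mef2c-deficient arrays lay above all controls (log2 fold change 2.44, standard error 0.70, limma adjusted p = 0.109), with a call that was lost without replicate 1 (1.60). Kcnmb4, a beta subunit of the large-conductance channel, had the lowest log2 fold change of the family, at -2.0. It read 144, 457 and 144 in control and 25.7 and 108 in Mef2c-deficient cells, below all controls but with an unadjusted p of 0.0637 (limma adjusted p = 0.173). Its antisense transcripts Kcnmb4os1 and Kcnmb4os2 had -0.44 and -0.29, and neither was called. Of the Kv7 genes only Kcnq3 and Kcnq5 were measured, and the 5 EAG, ERG and ELK genes were all positive (0.63 to 1.15) with none called. The dimmest member, Kcnh5, read 5.92, 5.65 and 5.33 in control and 12.3 and 6.84 in Mef2c-deficient cells.

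**Figure D5:**
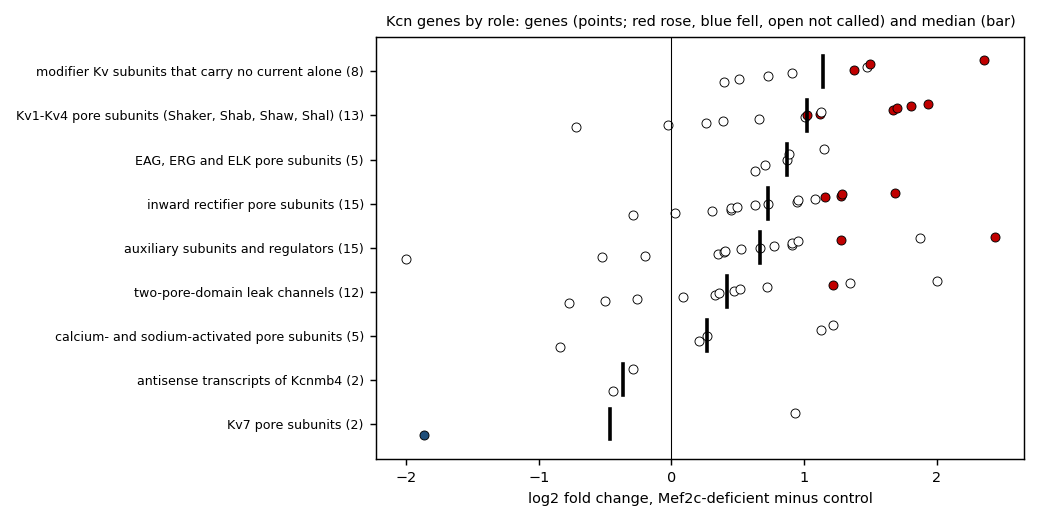
Log2 fold change (Mef2c-deficient minus control) of the 77 Kcn genes by role, with 1 point per gene (red rose, blue fell, open not called), a black bar for the median and the number of genes in parentheses. Modifier subunits had a median of 1.14, mostly from dim probe sets. Shaker, Shaw and Shal pore subunits had 1.02, in a row whose label also names Shab, of which no gene was a member. Kcnq5 is the 1 gene that fell, and the signs of Kcna3, Kcnab2, Kcnj2 and Kcnk6 turned under other settings.

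Of the 16 genes that rose, 9 were below the array median on all 5 arrays, 6 were mixed and only Kcnc1 was above it throughout. Kcnc1, Kcnip1 and Kcna6 exceeded the silent-family percentile on every array. The log2 fold changes of the 16 ran from 1.02 to 2.44 and their limma adjusted p from 0.0895 to 0.154, and replicate 1 was above replicate 2 in 12 of them.

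Other genes of potassium transport and cell volume were called in both directions. Of 26 measured, 2 rose (7.69%) and 3 fell (11.5%), with a median of -0.03, and neither share exceeded that of all genes (9.65% and 16.7%). Slc12a2 and Slc12a7, cotransporters that carry potassium with chloride, fell by 1.69 and 2.62 on the log2 scale, and Tmem175, a lysosomal potassium channel outside the Kcn family, fell by 2.25. Tmem175 read 1164, 1161 and 1184 in control and 367 and 166 in Mef2c-deficient cells (standard error 0.40, limma adjusted p = 0.0895). The 3 control values were nearly equal and both Mef2c-deficient values were far below them. Slc24a4, a potassium-dependent sodium and calcium exchanger, and Stk39, a kinase that acts on such cotransporters, rose by 1.44 and 2.32. Stk39 was dim, below the silent-family percentile on every array. Its rise rested mostly on Mef2c-deficient replicate 2, which lay 3.79 above the control mean in log2, against 0.85 for replicate 1. Of 14 genes of calcium entry and removal, 0 rose and 2 fell (14.3%), with a median of -0.61, against 16.7% of all genes and 29.8% of the brighter genes that fell. These were Trpm7, a channel joined to a kinase (-2.14), and Atp2a2, a calcium pump of the endoplasmic reticulum (-1.55).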

How the data were processed

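RNA of FACS-sorted pro-B cells was hybridised to Affymetrix Mouse Genome 430 2.0 arrays. The deposited values are intensities on a linear scale, which the authors obtained with robust multiarray averaging (background adjustment, quantile normalization and probe summary). Their natural logarithms run from 1.15 to 14.7, and 314 to 430 values per array exceed 65535, the limit of a 16-bit scanner. They appear to be e raised to the log2 signal, so that a deposited fold of 2 would be smaller in signal; all folds are of deposited values, and limma p-values do not depend on this base.

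By the methods, probe sets called absent or marginal in more than a set number of replicates were excluded from the study's tests. Over these 5 arrays alone, that number would exclude only probe sets absent or marginal on all 5. Whether the deposited table was filtered in this way was not stated, and Kcn genes outside it were not analysed here. Of 23835 probe sets, 17623 had 1 gene symbol in GEO's annotation of the array, 516 had several and 5696 are unnamed here. The brightest probe set was kept for each of 17325 genes; all 77 Kcn gene IDs were found in RefSeq. Deposited values were taken as log2 and tested with limma 3.58.1 (lmFit, eBayes; R 4.3.3) over all genes, with a call where the fold reached 2 and the unadjusted p did not exceed 0.05, the thresholds the study states for its pre-B arrays, applied here to the deposited values, and Benjamini-Hochberg adjusted p beside it. An exact permutation of 3 against 2 arrays has 10 groupings and cannot give a two-sided p below 0.2. A limma p-value sets the group difference against the spread between these arrays, moderated over all genes. As the number of mice per array is not given, how far it covers variation between mice is not known.

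Named were known lymphocyte channels, members above the array median on all 5 arrays, up to 10 called members in each direction by size, the brightest and the dimmest, Mef2c and called genes of the pathway lists; Kcnip4, Kcnj3 to Kcnj6, Kcnj13, Kcnj16, Kcnk2, Kcnk3, Kcnma1, Kcnmb1, Kcnmb4, Kcna5, Kcna6, Kcnd3 and Kcnq3 were added after their values were seen. Members and lists were chosen with earlier results of these data known. Alternatives were a signal-scale fold, further quantile normalization, cyclic loess, 2 centrings, a filter on dim genes, an offset of 50, probe set means, array weights, a t-test, a replicate block and leaving out each array. The fit was tested on simulated data.

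In the other marker lists the calls were Ncr1 (rose), Gzma and Prf1 (fell) for T and NK cells, Slc4a1 (rose) for erythroid cells, C1qa (rose) for neutrophils and macrophages, Cd22 and Sdc1 (fell) for mature B and plasma cells, and none for plasmacytoid dendritic cells or megakaryocytes. Of the genes used for housekeeping centring, 9 were measured and 5 fell.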

Additional observations from a re-analysis of the deposited data

How the results depend on the processing

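The median log2 fold change of the Kcn genes stayed positive in every alternative run, and the counts of calls did not stay put. With main counts of 16 that rose and 1 that fell and a median of 0.72, 8 rose at a fold of 2 in signal (4.34% of all genes, against 9.65% in the main setting). After further quantile normalization 11 rose (8.94% of all genes), 2 fell (7.83%) and the median was 0.44. With cyclic loess 9 rose (7.13% of all), 3 fell (7.94%) and the median was 0.34. Housekeeping centring moved the median of all genes to 0.85, and 62 rose (42.4% of all) and 0 fell (3.67%). The Kcn median was then 1.54, still 0.68 above that of all genes. With dim genes left out 2 rose (3.07%), and an offset of 50 gave 5 that rose (3.57%), 0 that fell (14.9% of all) and a median of 0.35. Array weights left 0 that fell, and the t-test 10 that rose (5.52%) and 0 that fell. Replicate numbers are shared by the groups in the labels, which do not say whether they pair the samples. Deviations of same-numbered arrays from their group means correlated at 0.12 and -0.01. With 2 Mef2c-deficient arrays, the deviations of 1 mirror those of the other, so these correlations cannot decide whether samples are paired. With the replicate block 5 rose (4.13%) and 2 fell (11.2% of all). Leaving out each control array in turn gave 9 to 12 that rose (5.58% to 7.48% of all) and 0 that fell (11.2% to 12.5%). Leaving out each of the 5 arrays gave medians of 0.43 to 0.94. Without Mef2c-deficient replicate 1 there were 8 (8.28% of all) and without replicate 2 there were 30 (17.4%), and without control replicate 1 or control replicate 3 there were 9 (5.58% and 5.68%). The genes above the array median on all arrays ran from 7 to 12 (12 without control replicate 3), and 14 passed the silent-family percentile. Signs reversed for Kcna3 with quantile normalization (0.76), cyclic loess (0.80), housekeeping centring (0.79), array weights (0.057), the replicate block (0.089) and without control replicate 3 (0.089) or Mef2c-deficient replicate 1 (0.56), with a range of -0.61 to 0.56 over the left-out arrays. They reversed for Kcnab2 (0.75, 0.84 and 0.61 in the first 3 of these, and 0.19 without Mef2c-deficient replicate 1, from -0.59), for Kcnk6 (0.037 with housekeeping centring, 0.36 without Mef2c-deficient replicate 1, from -1.91) and for Kcnj2 (-0.15 with quantile normalization, -0.44 with cyclic loess, -0.64 without control replicate 1, -0.14 without control replicate 2 and -1.40 without Mef2c-deficient replicate 2, up to 1.46). The cause was not tested. Other values of single named genes kept their direction. Of these, 225 kept their side of the threshold, 55 lost the call and 10 gained it. Arrays give no count of molecules, so dim members are limited by background.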
